A study of Homo sapiens with 4 samples.

Results

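DNA replication licensing and the machinery of the replication fork were followed through 55 genes in MHCC97-H, a cultured human hepatocellular carcinoma line. The 55 genes were taken by name from the deposited count table, after its gene identifiers had been matched to GENCODE release 29 symbols, and were sorted into 8 roles. They are 55 of the 58735 genes in the table, and all 55 passed the filter on low counts, as did 16388 genes in all. The study sequenced polyadenylated RNA from untreated wild-type cells (n = 2 libraries) and from wild-type cells kept for 16 h with clofazimine, a riminophenazine antibiotic (n = 2). Both groups were grown in DMEM with fetal bovine serum and antibiotics, and the labels name no agent and no vehicle for the untreated cells. The clofazimine dose is 40 uM in the sample labels and 30 uM in the series description, and this difference could not be settled. The labels do not say whether the libraries of a group came from separate cultures, and a p-value therefore speaks of the spread among these 4 libraries, which may be technical.

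Eukaryotic cells load the MCM2-7 helicase onto origins in G1, when the origin recognition complex (ORC), CDC6 and CDT1 act together, and geminin (GMNN) blocks CDT1 once S phase has begun. Helicase firing adds CDC45 and GINS to MCM2-7. Polymerase alpha-primase then lays down primers, polymerases epsilon and delta copy the strands, and RFC loads the sliding clamp PCNA. Many of these genes are known targets of the E2F transcription factors, and their messages are characteristic of late G1 and S phase. In RNA from whole cultures, fewer cells in S phase and less RNA per cell cannot be told apart.

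Total counts lay between 13543437 and 16860578 per library, and a gene with 0 counts could have had a level of up to 0.170 to 0.233 CPM (counts scaled to a common library size), a floor of 3 counts that covers counting error only. Of 11 hepatocellular line markers, AFP, ALB, APOB and TTR had 0 counts in every library, and the summed level of the list, which KRT8 and KRT18, keratins of simple epithelia, dominate, was 1632 and 1905 CPM untreated and 1771 and 2009 CPM with clofazimine. SERPINA1, a secreted liver protein of the list, was detected at 5.13 and 6.85 CPM untreated and fell to 1.32 and 1.38 CPM (-2.14 ± 0.31, adjusted p = 1.82e-05). Of the 5 hepatocellular markers that passed the filter, 2 fell, SERPINA1 among them, 1 rose and 2 were not called (median -0.03). Among markers of other cell types, the 7 fibroblast markers summed to 110.4 and 113 CPM untreated and 145 and 123 CPM treated. Of these, COL1A1, which rose (0.44 ± 0.12, adjusted p = 0.00518), made up 96.3 and 96.3 against 142 and 120.1 CPM, and COL1A2, PDGFRA and THY1 had 0 counts in some libraries. Only 3 fibroblast markers passed the filter, and beside COL1A1 the other 2 were called lower, each at least 2-fold. The 7 immune markers summed to 34.2 and 41.0 against 18.8 and 21.4 CPM with PTPRC and LYZ at 0, and the 5 endothelial markers to 25.5 and 32.8 against 5.98 and 5.77 CPM with KDR at 0. Both sums taken as signs of RNA composition moved with the treatment. The 5 noncoding RNAs MALAT1, NEAT1, GAS5, SNHG1 and KCNQ1OT1 all rose, from sums of 1724 and 1644 to 3100.0 and 2922 CPM. The sum of 7 histone messages went from 36.5 and 34.8 to 49.6 and 53.6 CPM. Of the 5 histone messages that passed the filter, 2 rose, 1 fell at least 2-fold and 2 were not called. The part of either sum in the results on replication genes was not tested.

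The replication genes did not move as a block. With clofazimine 22 of the 55 genes fell, 14 rose and 19 were not called by edgeR's quasi-likelihood test at a Benjamini-Hochberg adjusted p under 0.05 over all 16388 genes. Over all genes tested, 59.9% were called, 30.4% lower and 29.5% higher, beside 65.5% of the replication genes, 40.0% lower and 25.5% higher. The median log2 fold change was -0.06 for the replication genes and -0.03 for all genes, and the median size of the change, whatever its sign, was 0.45 against 0.59. Changes ran from -1.37 for E2F8 to 1.05 for TIPIN. Called changes of at least 2-fold were 4 lower, E2F8, RPA1, UHRF1 and E2F2, and 2 higher, TIPIN and ORC4, where all genes had 15.9% lower and 10.5% higher by that rule. Both clofazimine libraries lay below both untreated libraries for 26 genes and above them for 20, and the groups overlapped for 9, while 80.8% of all genes had groups that did not overlap, 41.6% lower and 39.2% higher. Groups that did not overlap, as given below for single genes, were thus the usual case among all genes. Together the 55 genes held 0.791% and 0.800% of the scaled counts of the untreated libraries, and 0.679% and 0.675% of those of the clofazimine libraries. Without untreated replicate 1 or untreated replicate 2, fewer of the 55 genes were called higher, and a smaller share of all genes was called in either direction. Without clofazimine replicate 1, more of the 55 genes were at least 2-fold lower.

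Counts differed from role to role. Of 9 licensing genes 7 rose and 0 fell, with a median log2 fold change of 0.51. Of 12 helicase genes 6 fell and 1 rose (median -0.28), of 10 polymerase subunits 4 fell and 2 rose (median -0.03), and of 8 clamp, clamp loader and Okazaki fragment genes 3 fell and 3 rose (median 0.18). The single-strand binding genes had 1 of 3 lower, fork protection 2 of 4 lower and 1 higher, chromatin assembly and maintenance 3 of 4 lower, and the group of E2F factors and DTL 3 of 5 lower. These medians were not tested between roles. Scaled by library totals instead of TMM, which moved the median of all genes by -0.17, 25 replication genes were lower and 7 higher (ORC4, ORC6, CDT1, GMNN, RFC3, RFC5 and TIPIN), so that the share of higher genes among those called went from 38.9% to 21.9%, and from 49.2% to 37.4% over all genes.

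**Figure D1:**
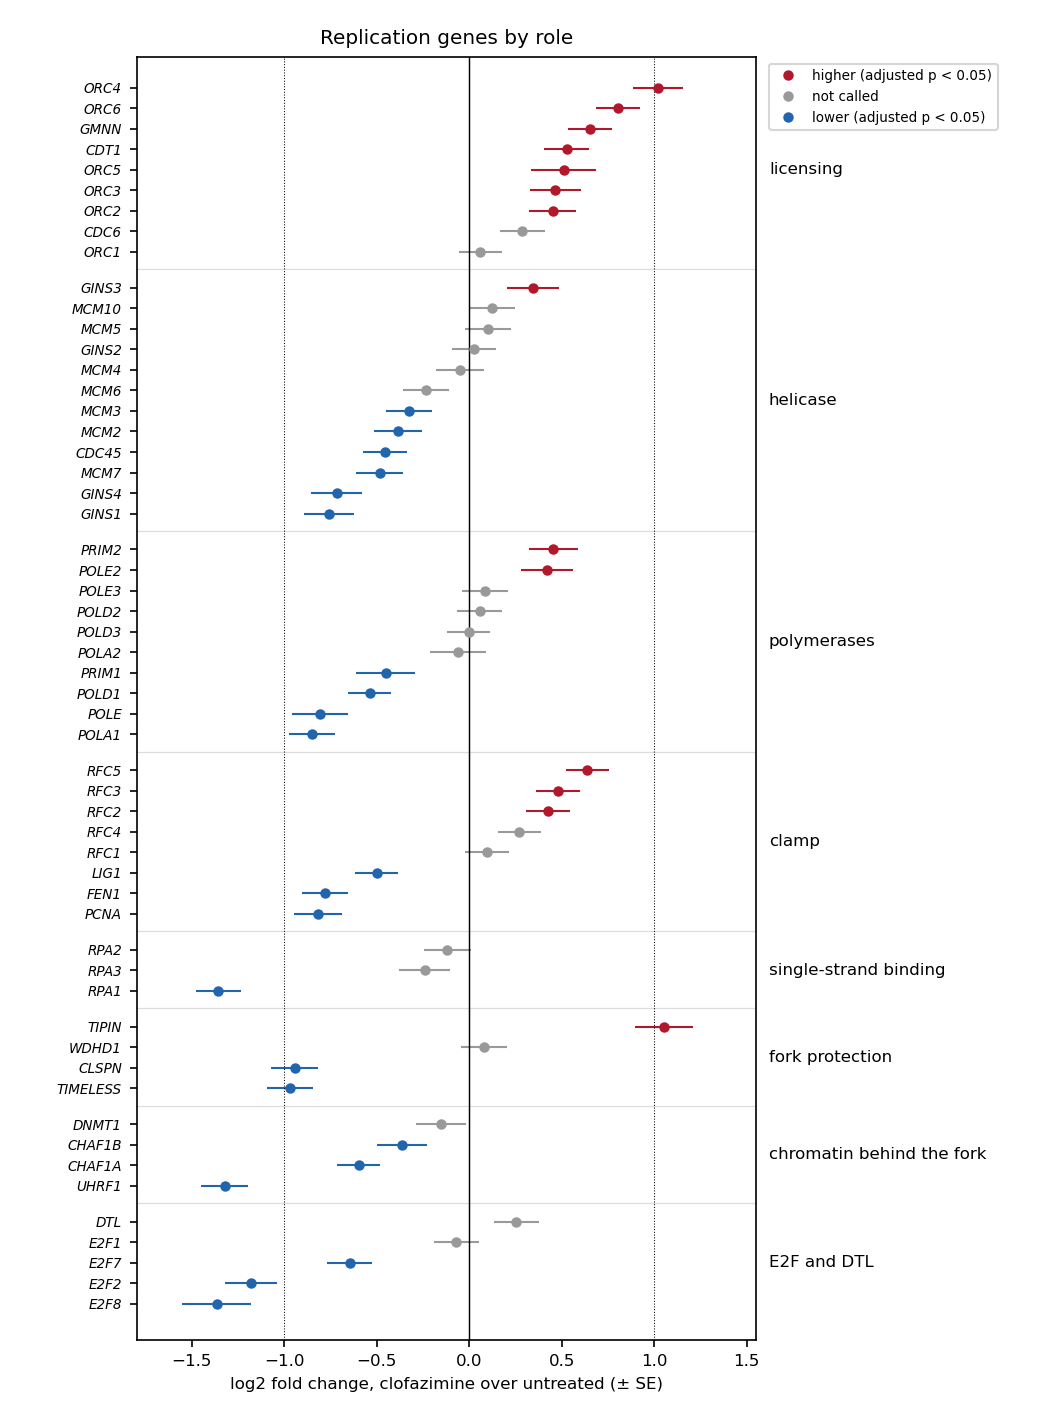
Fitted log2 fold change of clofazimine over untreated (x axis) for each of the 55 genes (y axis), grouped by role, with bars of ± 1 SE, red for higher, blue for lower and grey for not called at an adjusted p under 0.05. Licensing genes lie to the right of 0, and E2F8, RPA1, UHRF1 and E2F2 lie furthest to the left, between -1.37 and -1.18.

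Promoters of 7 genes picked by name are printed, to show the E2F-type letters that some fallen and some risen genes carry. These genes are not the ends of the range. TIPIN (1.05) and ORC4 (1.02), which rose most, had entries and were not printed. The RefSeq promoter table of GRCh38.p14 matched 48 of the 55 genes with 62 windows, each from 250 bases before to 50 bases after a start. MCM4, MCM5, GINS4, POLD3, RPA2, RPA3 and E2F8 had no entry. The E2F-type motif searched was any of TTTCCCGC, TTTCGCGC, TTTGCCGC and TTTGGCGC, read on either strand, and 41.9% of the 62 windows held it, against 3.31% of the 35116 windows in the table. Windows of the genes that fell held it in 12 of 28 cases, those of the genes that rose in 7 of 18 and those of the genes not called in 7 of 16. The second motif, CCAAT on either strand, was in 67.9% of the windows of genes that fell, 33.3% of those that rose and 56.2% of those not called, against 34.6% of all windows. Genes with several starts, such as CDC45, MCM7 and ORC4, enter the shares of both motifs once per window. Differences between the shares were not tested. Motif copies overlapped in 3 windows for E2F-type with E2F-type and in 1 window for E2F-type with CCAAT. The stretches printed run from 170 bases before to 30 after the start, 5′ to 3′ on the gene's strand, with the E2F-type motif, or its reverse complement, in capitals. For a gene with several starts, the window with the most E2F-type matches was printed, so the motif itself decided the choice. UHRF1, PCNA and GMNN each also had a window without a match. UHRF1 (chr19:4909331-4909530 on the plus strand), PCNA (chr20:5126593-5126792 on the minus strand) and E2F2 (chr1:23531204-23531403 on the minus strand) fell and carry it at -14, -59 and -42 from the start. CDT1 (chr16:88803619-88803818 on the plus strand) and GMNN (chr6:24775243-24775442 on the plus strand) rose and carry it at -35 and -80. RPA1 (chr17:1829835-1830034 on the plus strand), which fell, and ORC6 (chr16:46689489-46689688 on the plus strand), which rose, had no match in this stretch.
UHRF1: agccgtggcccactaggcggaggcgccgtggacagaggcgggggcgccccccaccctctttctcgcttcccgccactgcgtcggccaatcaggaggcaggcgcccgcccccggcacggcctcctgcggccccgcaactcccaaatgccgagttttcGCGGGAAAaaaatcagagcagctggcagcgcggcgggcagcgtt
PCNA: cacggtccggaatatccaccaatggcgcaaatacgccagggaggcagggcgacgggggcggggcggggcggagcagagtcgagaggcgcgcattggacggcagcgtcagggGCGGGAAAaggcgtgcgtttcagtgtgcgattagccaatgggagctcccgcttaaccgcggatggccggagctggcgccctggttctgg
E2F2: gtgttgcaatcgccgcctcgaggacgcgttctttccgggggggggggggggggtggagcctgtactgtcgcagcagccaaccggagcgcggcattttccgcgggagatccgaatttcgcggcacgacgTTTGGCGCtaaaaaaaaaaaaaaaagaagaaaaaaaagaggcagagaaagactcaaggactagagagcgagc
RPA1: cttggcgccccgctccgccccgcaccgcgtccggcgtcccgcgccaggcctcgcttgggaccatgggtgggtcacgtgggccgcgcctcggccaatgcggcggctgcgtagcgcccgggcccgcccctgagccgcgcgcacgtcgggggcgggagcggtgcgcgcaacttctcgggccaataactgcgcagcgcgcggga
CDT1: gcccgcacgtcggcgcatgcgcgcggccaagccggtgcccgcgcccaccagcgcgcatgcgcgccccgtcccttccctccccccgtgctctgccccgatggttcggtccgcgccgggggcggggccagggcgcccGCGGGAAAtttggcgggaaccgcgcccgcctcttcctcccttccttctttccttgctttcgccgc
GMNN: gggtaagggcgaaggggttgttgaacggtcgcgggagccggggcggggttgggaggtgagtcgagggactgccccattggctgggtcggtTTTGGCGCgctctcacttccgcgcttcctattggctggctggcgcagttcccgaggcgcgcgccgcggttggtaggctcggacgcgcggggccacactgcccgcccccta
ORC6: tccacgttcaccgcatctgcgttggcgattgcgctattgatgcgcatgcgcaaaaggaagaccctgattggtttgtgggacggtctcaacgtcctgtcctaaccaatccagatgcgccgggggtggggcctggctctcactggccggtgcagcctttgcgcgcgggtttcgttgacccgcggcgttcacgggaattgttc

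Of the 9 licensing genes 7 were higher with clofazimine, led by ORC4 at 2.03-fold and ORC6 at 1.75-fold. ORC4, an AAA+ subunit of the origin recognition complex (ENSG00000115947, GRCh38 chr2:147930397-148021604, minus strand), was at 20.0 and 21.5 CPM in the untreated libraries and at 40.9 and 43.3 CPM in those with clofazimine. Neither treated library came near an untreated one, and the test gave a log2 fold change of 1.02 ± 0.13 (SE), adjusted p = 7.67e-06. ORC6, the smallest ORC subunit, was at 41.8 and 42.7 CPM untreated and 70.0 and 77.5 CPM with clofazimine, with a log2 fold change of 0.80 ± 0.12 (SE), adjusted p = 2.83e-05. GMNN, the inhibitor of CDT1, was at 51.3 and 49.5 CPM without and 76.8 and 81.6 CPM with clofazimine, with a log2 fold change of 0.65 ± 0.12 (SE), adjusted p = 0.000164. Its partner CDT1, which brings MCM2-7 to ORC, was at 211 and 219 CPM in the untreated libraries and at 307 and 313 CPM in those with clofazimine, with a log2 fold change of 0.53 ± 0.12 (SE), adjusted p = 0.00141. In all 4 genes both treated libraries lay above both untreated ones. The ratio of CDT1 to GMNN per kilobase went from 1.61 and 1.72 when untreated to 1.56 and 1.49 with clofazimine, and with the length and GC offset the fitted ratio changed the other way, by 0.64 on the log2 scale against -0.13 without it. ORC2, ORC3 and ORC5 also rose, by 0.45, 0.46 and 0.51 on the log2 scale. ORC1, the large ATPase subunit, was the ORC gene without a call, at 68.6 and 73.8 CPM untreated and 74.1 and 74.2 CPM with clofazimine. CDC6, the ATPase that joins ORC in loading, was at 149 and 148 CPM without and 169 and 193 CPM with clofazimine, just outside the threshold at an adjusted p of 0.0518. CDC6 was called higher in 5 of the 12 alternatives, among them DESeq2 size factors (0.30) and limma-voom (0.28), and was at 0.12 with library totals. Scaled by library totals, 4 of the 9 genes were higher, and a correction for transcript length and GC content ended the calls of GMNN (0.08), ORC3 (-0.01) and ORC5 (-0.03). ORC5 was not called either without untreated replicate 1, untreated replicate 2 or clofazimine replicate 2, at 0.54, 0.44 and 0.20, and ORC2 and ORC3 without untreated replicate 2, at 0.37 each; without that library 4 of the 9 were higher.

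Of the 12 helicase genes 6 fell. Among the MCM2-7 ring subunits, MCM7, MCM2 and MCM3 fell and MCM4, MCM5 and MCM6 were not called. MCM7 was at 561 and 581 CPM in the untreated libraries and at 416 and 399.5 CPM in those with clofazimine, with a log2 fold change of -0.49 ± 0.13 (SE), adjusted p = 0.00355. MCM2 was at 359 and 366 CPM untreated and 301 and 254 CPM with clofazimine (-0.39 ± 0.13, adjusted p = 0.017). MCM3 was at 449 and 454 CPM without and 363 and 357 CPM with clofazimine (-0.33 ± 0.12, adjusted p = 0.0321). Both treated libraries were lower in all 3. MCM2 shares 23.6% of its exon bases with genes on the opposite strand, among them TPRA1, which rose by 1.15 ± 0.12 on the log2 scale, and whether strand was used in counting is not given in the sources used here. MCM4 was at 689 and 726 CPM in the untreated libraries and at 688 and 679 CPM in those with clofazimine. MCM5 was at 261 and 277 CPM untreated and 300.3 and 276 CPM with clofazimine. Neither difference passed the test. MCM6 was at 298 and 296 CPM without and 241 and 264 CPM with clofazimine, with adjusted p = 0.114. MCM10, a factor that helps the loaded helicase fire, was at 52.4 and 45.9 CPM in the untreated libraries and at 53.1 and 54.1 CPM in those with clofazimine, and was not called.

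The accessory factors of the helicase moved apart. GINS1 was at 69.5 and 72.9 CPM untreated and 36.7 and 47.3 CPM with clofazimine, with a log2 fold change of -0.76 ± 0.13 (SE), adjusted p = 0.000134. GINS4, another subunit of the 4-member GINS complex, was at 31.5 and 30.3 CPM without and 18.6 and 19.0 CPM with clofazimine, with a log2 fold change of -0.72 ± 0.14 (SE), adjusted p = 0.000329. CDC45, which holds GINS and MCM2-7 together, fell as well, from 70.0 and 68.0 to 48.0 and 52.6 CPM (-0.45 ± 0.12, adjusted p = 0.00344). These 3 genes were lower in both treated libraries and kept their calls in all 12 alternatives, as did MCM7. GINS3 went the other way, at 22.7 and 20.8 CPM in the untreated libraries and at 27.0 and 28.1 CPM in those with clofazimine, with a log2 fold change of 0.34 ± 0.14 (SE), adjusted p = 0.0424, and it was not called in 8 of the 12 alternatives, among them those without untreated replicate 1 (0.39), untreated replicate 2 (0.27) and clofazimine replicate 2 (0.33). GINS2 was at 56.2 and 56.6 CPM untreated and 54.9 and 59.7 CPM with clofazimine, and was not called. GINS4 and GINS3 share 23.6% and 10.9% of their exon bases with genes on the opposite strand, each at no more than 14 counts in a library. The length and GC correction ended the calls of MCM2 (-0.11), MCM3 (-0.18) and GINS3 (0.25), and MCM2 was called neither without untreated replicate 1 (-0.42), nor without untreated replicate 2 (-0.39), nor without clofazimine replicate 2 (-0.26). MCM3 lost its call without either untreated library, at -0.36 and -0.33.

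Catalytic polymerase subunits fell while some of their partners rose. POLA1, the catalytic subunit of polymerase alpha, was at 187 and 165 CPM without and 102 and 92.8 CPM with clofazimine, 1.80-fold lower (-0.85 ± 0.12, adjusted p = 2.19e-05). POLE, the catalytic subunit of the leading-strand polymerase epsilon, was at 299 and 314 CPM in the untreated libraries and at 207 and 143 CPM in those with clofazimine, with a log2 fold change of -0.81 ± 0.15 (SE), adjusted p = 0.000246. POLD1, its counterpart in polymerase delta, was at 129.8 and 133 CPM untreated and 94.4 and 86.9 CPM with clofazimine, with a log2 fold change of -0.54 ± 0.12 (SE), adjusted p = 0.000876. All 3 catalytic subunits were lower in both treated libraries, and the treated libraries of POLE differed more from each other than those of POLA1 or POLD1. PRIM1, the catalytic primase subunit, fell from 28.3 ± 4.66 to 20.6 ± 2.90 CPM (SD, n = 2) (-0.45 ± 0.16, adjusted p = 0.0205). PRIM2, the regulatory primase subunit, rose instead, at 32.0 and 28.8 CPM without and 38.8 and 44.4 CPM with clofazimine, with a log2 fold change of 0.45 ± 0.13 (SE), adjusted p = 0.00779. POLE2, an accessory subunit of polymerase epsilon, also rose, at 19.1 and 19.8 CPM in the untreated libraries and at 26.7 and 25.2 CPM in those with clofazimine, with a log2 fold change of 0.42 ± 0.14 (SE), adjusted p = 0.0174. POLA2, POLD2, POLD3 and POLE3 were not called, with log2 fold changes of -0.06, 0.06, -0.00 and 0.08. The length and GC correction ended the calls of POLE (-0.25), PRIM2 (-0.08) and POLE2 (-0.15). PRIM1 was not called without untreated replicate 1 (-0.30) or clofazimine replicate 1 (-0.30), PRIM2 without untreated replicate 2 (0.36), and POLE2 without untreated replicate 1 (0.37) or untreated replicate 2 (0.43), so 1 and 0 polymerase genes were higher without those libraries. PRIM1 shares 16.2% of its exon bases with other genes on the same strand, among them NACA, which rose by 1.03 ± 0.13. POLA2 shares 35.1% with a gene on the same strand that had no more than 11 counts in a library.

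**Figure D2:**
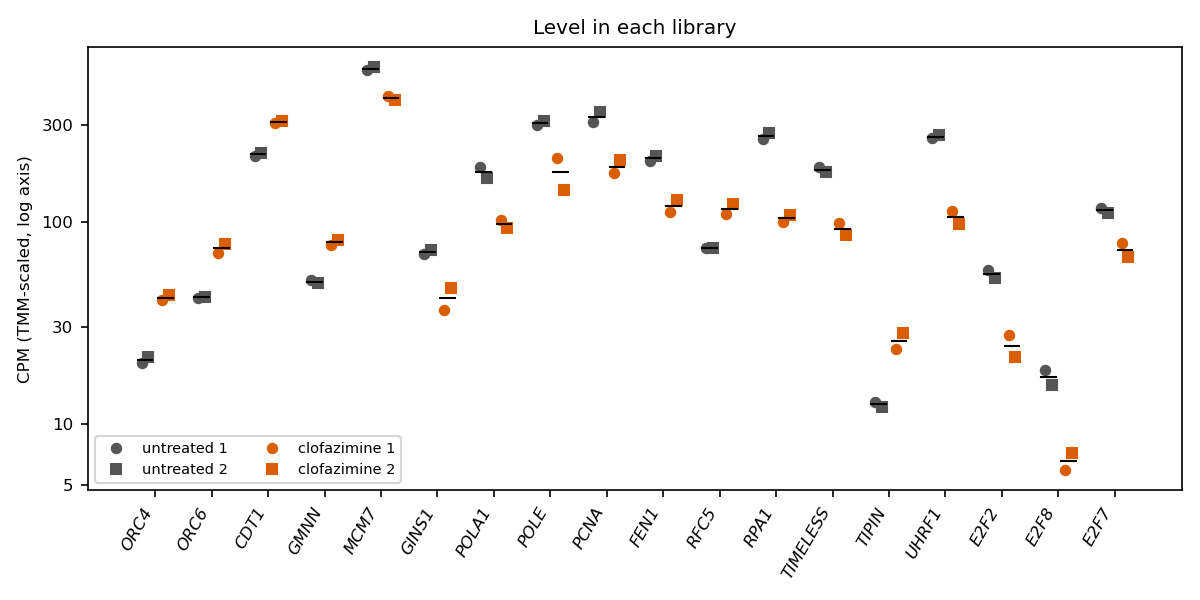
Level of replication genes from each role in each of the 4 libraries, in CPM on a log axis (y axis), with genes along the x axis, grey for untreated and orange for clofazimine libraries, circles for replicate 1, squares for replicate 2 and a bar at each group's mean. RPA1, UHRF1, PCNA and POLA1 sit lower in both clofazimine libraries, and ORC4, ORC6 and TIPIN sit higher in both.

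The sliding clamp fell, and 3 of the 5 genes of its loader rose. PCNA, the clamp itself (ENSG00000132646, GRCh38 chr20:5114953-5126626, minus strand), was at 312 and 348 CPM untreated and 173 and 201 CPM with clofazimine, 1.76-fold lower (-0.82 ± 0.13, adjusted p = 5.21e-05). FEN1, the flap nuclease that trims Okazaki fragments, was at 200.4 and 211 CPM without and 111 and 128 CPM with clofazimine, with a log2 fold change of -0.78 ± 0.12 (SE), adjusted p = 5.27e-05. LIG1, the ligase that seals them, was at 81.8 and 82.7 CPM in the untreated libraries and at 60.4 and 55.8 CPM in those with clofazimine, with a log2 fold change of -0.50 ± 0.12 (SE), adjusted p = 0.00153. Clamp and both Okazaki fragment enzymes were lower in both treated libraries. RFC5, a small subunit of the loader, was at 74.1 and 74.3 CPM untreated and 109 and 122 CPM with clofazimine, with a log2 fold change of 0.64 ± 0.12 (SE), adjusted p = 0.000221. RFC3 went from 56.1 and 57.9 to 75.9 and 82.9 CPM (0.48 ± 0.12, adjusted p = 0.00222) and RFC2 from 69.8 and 64.8 to 85.0 and 95.4 CPM (0.42 ± 0.12, adjusted p = 0.00593). Each was higher in both treated libraries. RFC4 was at 0.27 and RFC1, the large subunit, at 0.10 on the log2 scale, and neither was called. RFC4 was called higher in 2 of the 12 alternatives, among them DESeq2 size factors (0.29), and was at -0.11 with the length and GC offset. Length and GC correction ended the calls of LIG1 (-0.18) and RFC3 (0.10). Without untreated replicate 1 neither RFC2 (0.46) nor RFC3 (0.44) was called, nor was RFC2 without untreated replicate 2 (0.35), which left 1 clamp gene higher without untreated replicate 1. RFC5 shares 10.6% of its exon bases with genes on the opposite strand, among them WSB2, at 0.19 ± 0.12.

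RPA1, the large subunit of the protein that coats single-stranded DNA (ENSG00000132383, GRCh38 chr17:1829702-1900082, plus strand), had the smallest adjusted p of the 55 genes. It was at 257 and 276 CPM without and 99.8 and 108 CPM with clofazimine. Both treated libraries were far below the untreated pair, 2.56-fold on average (-1.36 ± 0.12, adjusted p = 1.48e-07). RPA2, the middle subunit, was at 90.1 and 88.6 CPM in the untreated libraries and at 72.8 and 91.4 CPM in those with clofazimine. RPA3, the smallest, was at 35.5 and 35.3 CPM untreated and 27.4 and 32.4 CPM with clofazimine. The RPA2 libraries overlapped between the groups and the RPA3 libraries did not, and neither gene was called, at -0.12 ± 0.13 and -0.24 ± 0.14. RPA3 was called lower, at -0.36, without clofazimine replicate 2 and, at -0.41, with library totals. The ratio of RPA1 to RPA2 per kilobase went from 1.15 and 1.26 when untreated to 0.553 and 0.479 with clofazimine.

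Fork protection genes split within a complex. TIMELESS and TIPIN form a pair that travels with the fork and, with claspin (CLSPN), carries the replication checkpoint signal. TIPIN (ENSG00000075131, GRCh38 chr15:66336206-66386746, minus strand) was at 12.9 and 12.1 CPM without and 23.5 and 28.3 CPM with clofazimine, 2.07-fold higher (1.05 ± 0.16, adjusted p = 2.78e-05). TIMELESS (ENSG00000111602, GRCh38 chr12:56416373-56449403, minus strand) was at 185 and 176 CPM in the untreated libraries and at 98.9 and 85.7 CPM in those with clofazimine, 1.96-fold lower (-0.97 ± 0.12, adjusted p = 5.51e-06). CLSPN was at 78.4 and 78.1 CPM untreated and 44.3 and 37.1 CPM with clofazimine, with a log2 fold change of -0.94 ± 0.13 (SE), adjusted p = 8.41e-06. The libraries of the groups did not overlap in any of these genes, as in 80.8% of all genes, and the 3 calls held in all 12 alternatives. WDHD1, which links polymerase alpha to the helicase, was at 111 and 97.6 CPM without and 104 and 117 CPM with clofazimine, and was not called. The TIMELESS to TIPIN ratio per kilobase went from 4.90 and 4.95 when untreated to 1.43 and 1.03 with clofazimine. TIPIN shares 21.0% of its exon bases with the pseudogene RPL9P25 on the same strand, which had 0 counts in every library. Whether reads from those bases were counted for TIPIN or dropped is not given in the sources used here.

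Of the 4 genes that rebuild chromatin behind the fork 3 fell. UHRF1, which recognises hemimethylated DNA and brings the maintenance methyltransferase DNMT1 to it (ENSG00000276043, GRCh38 chr19:4903080-4962154, plus strand), was at 258 and 267 CPM in the untreated libraries and at 113 and 97.4 CPM in those with clofazimine, 2.50-fold lower (-1.32 ± 0.13, adjusted p = 2.42e-07). DNMT1 itself was at 429 and 443 CPM untreated and 433 and 351 CPM with clofazimine. Its first treated library lay between the untreated ones and the second below them, and it was not called (-0.16 ± 0.14, adjusted p = 0.335). CHAF1A, the large subunit of the histone chaperone CAF-1, was at 162 and 165 CPM without and 109 and 107 CPM with clofazimine, with a log2 fold change of -0.60 ± 0.12 (SE), adjusted p = 0.000342. CHAF1B, its partner, was at 84.7 and 69.4 CPM in the untreated libraries and at 53.5 and 66.1 CPM in those with clofazimine, with a log2 fold change of -0.36 ± 0.14 (SE), adjusted p = 0.0289. Both CAF-1 genes were lower in both treated libraries. DNMT1 was called higher, at 0.28, after the length and GC correction and lower with library totals, at -0.32, and without clofazimine replicate 1, at -0.29. CHAF1B was called neither after that correction (-0.16) nor without untreated replicate 1 (-0.23) or clofazimine replicate 1 (-0.20).

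E2F2, E2F7 and E2F8 fell, while E2F1 was not called. E2F8, an atypical repressor of the family (ENSG00000129173, GRCh38 chr11:19224063-19241620, minus strand), was at 18.5 and 15.5 CPM untreated and 5.91 and 7.21 CPM with clofazimine, 2.58-fold lower (-1.37 ± 0.19, adjusted p = 1.23e-05). Its raw counts were 76 and 110 in the clofazimine libraries, the lowest of the 55 genes. E2F2, an activator, was at 57.7 and 52.7 CPM without and 27.4 and 21.4 CPM with clofazimine, 2.27-fold lower (-1.18 ± 0.14, adjusted p = 3.2e-06). E2F7, the other atypical repressor, was at 117 and 110.1 CPM in the untreated libraries and at 78.7 and 66.7 CPM in those with clofazimine, with a log2 fold change of -0.65 ± 0.12 (SE), adjusted p = 0.000278. Both treated libraries were lower in each of the 3, and all 3 calls held in all 12 alternatives. E2F1, the activator best known for driving S-phase genes, was at 221 and 232 CPM untreated and 212 and 219 CPM with clofazimine (-0.07 ± 0.12, adjusted p = 0.629). DTL, the CRL4 ubiquitin ligase subunit that destroys CDT1 on PCNA-bound DNA, was at 138 and 125 CPM without and 163 and 151 CPM with clofazimine (0.25 ± 0.12, adjusted p = 0.079), with both treated libraries above both untreated ones, and it was called higher, at 0.32, without clofazimine replicate 2.

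**Figure D3:**
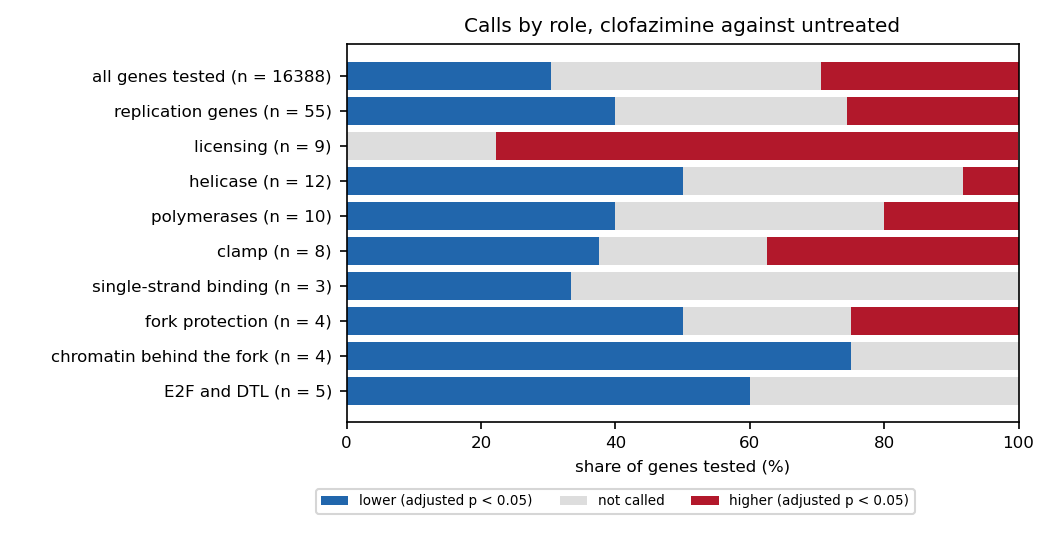
Share of genes tested, in percent (x axis), called lower (blue), not called (grey) and called higher (red) with clofazimine, for all 16388 genes, the 55 replication genes and each of the 8 roles (y axis). Licensing has 77.8% higher and none lower, and the chromatin group has 75.0% lower and none higher. All genes have 29.5% higher and 30.4% lower.

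Within complexes, levels were set side by side as RPKM (CPM per kilobase of principal transcript), as a description without a test. In the untreated libraries RPA1 was the most abundant RPA message, ahead of RPA2 and RPA3, and with clofazimine RPA2 came first. In polymerase alpha-primase POLA1 led when untreated, and with clofazimine POLA1 led in replicate 1 and PRIM2 in replicate 2. The lowest subunit was POLA2 in both groups, with 35.1% of its exon bases shared with a gene on the same strand. There the ratio of the highest to the lowest subunit went from 6.41 ± 0.244 to 3.97 ± 0.196 (SD, n = 2). For TIMELESS and TIPIN that ratio went from 4.93 ± 0.0378 to 1.23 ± 0.283, and over all annotated exons from 6.85 to 1.72. The spread widened in GINS, from 2.72 ± 0.168 to 4.38 ± 0.190, and in RFC, from 2.60 ± 0.0409 to 3.01 ± 0.0498. MCM2-7 went from 2.54 ± 0.0482 to 2.43 ± 0.162, with MCM7 first untreated and MCM4 first with clofazimine. ORC went from 8.41 ± 0.321 to 7.22 ± 0.227 in the same order of subunits, ORC6 first and ORC4 last. Polymerase delta went from 4.72 ± 0.189 to 4.91 ± 0.0744, polymerase epsilon from 4.35 ± 0.122 to 3.46 ± 0.571 and CAF-1 from 2.88 ± 0.441 to 2.46 ± 0.400, with their orders kept. Measured over all annotated exons instead, the ratio went from 3.55 to 2.51 in MCM2-7, from 9.69 to 4.98 in ORC, from 4.14 to 5.11 in GINS, from 1.91 to 2.39 in RFC, from 4.43 to 4.38 in RPA and from 8.49 to 4.95 in polymerase alpha-primase. On that measure MCM3 led MCM2-7 with clofazimine, ORC1 led ORC, RFC2 led RFC, and POLA1 had the highest mean in polymerase alpha-primase in both groups.

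Ratios of 2 messages in the same library do not depend on how libraries are scaled, and 14 pairs were computed, chosen after their values were seen. Beside the pairs named with their roles, PCNA over RFC5 went from 5.13 and 5.71 when untreated to 1.94 and 2.01 with clofazimine. POLE over POLE2 went from 3.55 and 3.60 when untreated to 1.75 and 1.29 with clofazimine. UHRF1 over DNMT1 went from 0.755 and 0.757 when untreated to 0.327 and 0.348 with clofazimine. In these pairs both treated libraries had less than the untreated ones, by 2.74-fold, 2.38-fold and 2.24-fold on average. The length and GC offset bears on such ratios. In the fit with it POLE over POLE2 was 1.08-fold lower and TIMELESS over TIPIN 2.45-fold lower, where the fit without it gave 2.34-fold and 4.06-fold. PCNA over RFC5 was 3.01-fold and UHRF1 over DNMT1 2.37-fold lower with it. With 2 libraries against 2 there are 6 regroupings, and an exact two-sided permutation test cannot give less than 0.333, which 13 of the 14 pairs reached. CHAF1A over CHAF1B gave 0.667.

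**Figure D4:**
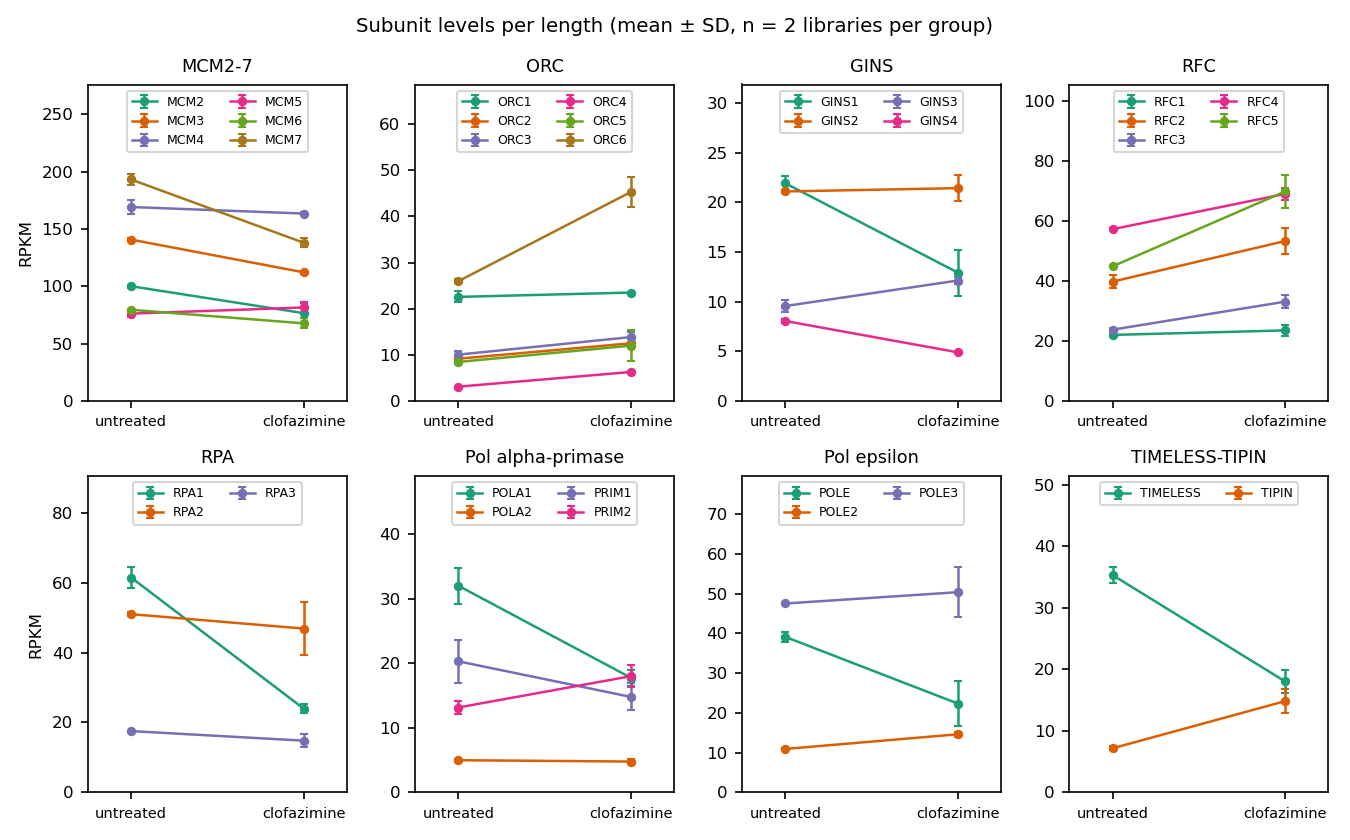
Level in RPKM per principal transcript (y axis) of each subunit of 8 replication complexes, untreated and with clofazimine (x axis), as mean ± SD of n = 2 libraries. RPA1 lies above RPA2 in the untreated libraries and below it with clofazimine, and TIMELESS comes down towards TIPIN.

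Transcript length and base composition were set beside the calls. The 22 genes that fell had a median principal transcript of 3731.5 bases and 51.7% GC, the 19 not called 3736 bases and 47.1% GC, and the 14 that rose 2116 bases and 41.4% GC. Across the 55 genes, Spearman's rho of the log2 fold change was -0.37 with transcript length and -0.40 with GC content, and across all genes tested it was -0.20 with each; these genes share the same 4 libraries, and no p is given. Median untreated levels were 147.7 CPM for the genes that fell and 34.9 CPM for those that rose, and rho with the mean level was -0.26 across the 55 genes and 0.22 across all. With an offset for length and GC content, 20 of the 55 genes were lower and 11 higher. That offset ended 12 of the 36 calls, all named with their roles, and newly called CDC6 (0.41), MCM5 (0.37), DTL (0.23) and DNMT1 (0.28) higher and MCM6 (-0.31), RPA2 (-0.30) and RPA3 (-0.54) lower. The offset was fitted to these same 4 libraries, so it also takes up any response to clofazimine that follows length or GC content. The part of length and GC content was therefore not tested, neither in the 12 calls that ended nor in the remaining ones. Of the 36 calls, 21 held in all 12 alternatives: 16 lower, and 5 higher, ORC4, ORC6, CDT1, RFC5 and TIPIN. Without a filter on low counts, ORC5, MCM3, GINS3, PRIM1 and CHAF1B were not called, and with the DESeq2 Wald test GINS3, PRIM1 and CHAF1B were not.

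**Figure D5:**
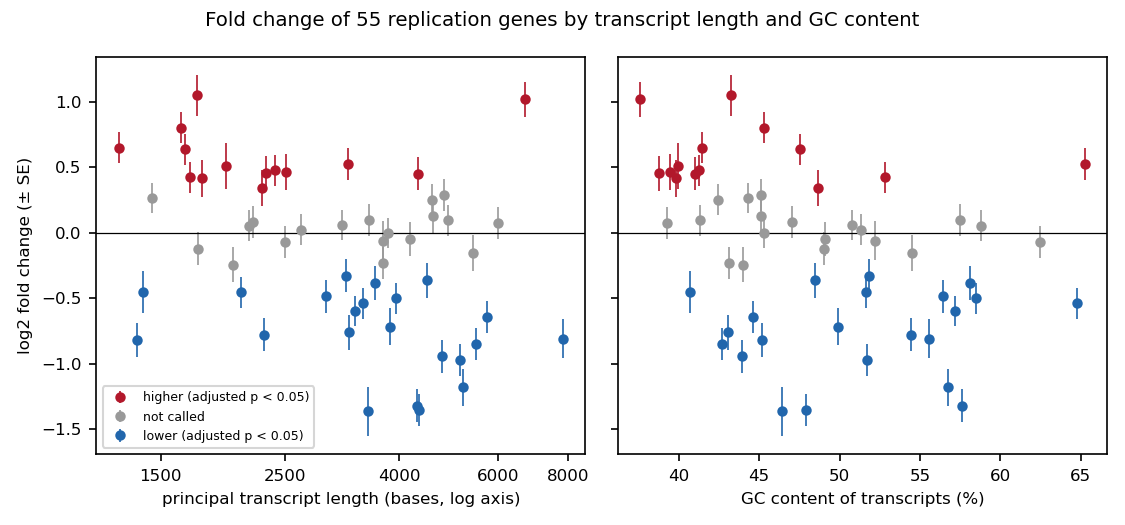
Log2 fold change of the 55 replication genes (y axis) with bars of ± 1 SE, against principal transcript length in bases on a log axis (left) and GC content in percent (right), red for higher, blue for lower and grey for not called. Genes that rose lie mostly at the short and low-GC end, with medians of 2116 bases and 41.4% GC, against 3731.5 bases and 51.7% GC for those that fell.

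Other lists around replication were counted in the same fit, and these lists, too, were chosen with earlier results known. Of 32 replication factors outside the 55 genes, 11 rose and 6 fell (median 0.15). That is 53.1% called, where all genes had 59.9%, and the share in the list of quiescence and arrest was 62.5%, so that these lists, like that of nucleotide supply, lay near the background. DBF4, the activator of the CDC7 kinase that fires origins, rose from 33.9 and 30.4 to 86.0 and 82.7 CPM (1.39 ± 0.12, adjusted p = 1.01e-07), and CDC7 itself was not called. PCLAF, a PCNA-binding protein, rose (1.04 ± 0.14, adjusted p = 8.07e-06). ASF1B, the histone chaperone that hands histones to CAF-1, fell from 164 and 193 to 48.9 and 56.3 CPM (-1.76 ± 0.13, adjusted p = 1.47e-08). Of 10 genes of nucleotide supply 4 fell and 2 rose (median -0.14). SAMHD1, which breaks down dNTPs, fell from 33.3 and 32.2 to 4.90 and 5.18 CPM (-2.70 ± 0.17, adjusted p = 1.77e-09), RRM2, the small subunit of ribonucleotide reductase, fell (-0.70 ± 0.12, adjusted p = 0.000117), and DCK, a salvage kinase, rose (0.81 ± 0.15, adjusted p = 0.000215). Of 9 further E2F, DP and pocket protein genes 3 rose and 3 fell (median 0.20), 66.7% called against 59.9% of all genes. TFDP2 (-1.02 ± 0.12, adjusted p = 3.01e-06) and RBL2 (-0.62 ± 0.12, adjusted p = 0.000354) were lower and E2F5 (0.86 ± 0.23, adjusted p = 0.00422) was higher. Without untreated replicate 2, 6 of the replication factors, 1 of the nucleotide genes and 1 of the E2F and pocket genes were higher, and without untreated replicate 1 or clofazimine replicate 2, 1 of the nucleotide genes was.

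Genes that control or destroy licensing factors gave 5 lower and 3 higher of 12 (median -0.04). All genes had 59.9% called, 30.4% lower and 29.5% higher, beside 66.7% called in this list. Cyclin E, the partner of CDK2 at the start of S phase, was lower in both forms, CCNE1 falling from 47.6 and 42.2 to 14.5 and 14.8 CPM (-1.61 ± 0.14, adjusted p = 9.94e-08) and CCNE2 by 1.31 ± 0.18 on the log2 scale (adjusted p = 1.28e-05). CKS1B, a cofactor of the SKP2 ligase, rose (1.21 ± 0.13, adjusted p = 8e-07). All 9 replication checkpoint genes were called, 5 higher and 4 lower (median 0.63), where 59.9% of all genes were called. No list was tested against that share. HUS1, a subunit of the 9-1-1 checkpoint clamp, rose from 14.0 and 12.5 to 41.7 and 46.5 CPM (1.73 ± 0.14, adjusted p = 5.28e-08), while RAD17, the loader of that clamp (-1.11 ± 0.18, adjusted p = 6.73e-05), and ATRIP, the partner of ATR (-1.18 ± 0.15, adjusted p = 5.26e-06), fell. Of 15 genes of G2 and mitosis 7 rose and 5 fell (median 0.18, 80.0% called), with UBE2C higher (1.30 ± 0.12, adjusted p = 1.48e-07) and PLK1 (-0.79 ± 0.12, adjusted p = 2.69e-05) and MKI67 (-0.71 ± 0.19, adjusted p = 0.00459) lower. Without untreated replicate 1, 1 of these genes was higher, and without untreated replicate 2, 3 were. MKI67, the proliferation marker, differed between the treated libraries, at 445 and 246 CPM. Of 8 genes of quiescence and arrest 3 rose and 2 fell (median 0.25). CDKN1A, the inhibitor p21 that also binds PCNA, rose from 175 and 193 to 599 and 655 CPM (1.77 ± 0.13, adjusted p = 1.58e-08), GADD45A rose from 22.6 and 19.6 to 280.4 and 335 CPM (3.87 ± 0.15, adjusted p = 6.29e-12), and CDKN2B rose by 0.71 (adjusted p = 0.000254). Without untreated replicate 2 or clofazimine replicate 1, 0 of these 8 genes were lower.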

How the data were processed

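Polyadenylated RNA of 2 untreated and 2 clofazimine libraries was sequenced from Illumina TruSeq libraries, per the labels' protocols. The authors deposited raw counts per gene, whole numbers for 58735 Ensembl identifiers, per the file header. fastp and the build GRCh38 are named in the submitters' processing notes, and the aligner, the counter, its strand setting and the annotation release are not given in the sources used here. Reads of genes that overlap, 24 of the 55 replication genes among them, could have been given to either gene or to neither. Genes of the other lists overlap as well. ATRIP shares 1515 of its 5431 exon bases with TREX1 on the same strand. CCNE2 shares 1633 of its 4397 exon bases with genes on the opposite strand, among them INTS8. All identifiers matched GENCODE release 29, which gave symbols, coordinates, transcript lengths and GC content.

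From the counts, edgeR 4.0.16 in R 4.3.3 tested 16388 genes that passed filterByExpr (minimum count 10, minimum total 15) with its quasi-likelihood test, TMM scaling (factors 0.936 to 1.07) and Benjamini-Hochberg adjustment over all of them. CPM are counts over the TMM-scaled size. Standard errors were taken as the absolute log2 fold change over the square root of F. Library totals were 13543437 to 16860578, and the biological coefficient of variation was 9.91%. Replicates differed by more than counting noise (chi-square per degree of freedom 6.40 untreated, 13.1 clofazimine). The fit was tested on simulated counts.

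Alternatives were DESeq2 1.42.0 size factors and Wald test, library totals, no filter, 1 CPM in 2 libraries, limma-voom (limma 3.58.1), a replicate block, a length and GC offset (mgcv 1.9.3) and leaving out each library. Exon lengths over all annotated exons were added after the data were seen. The 55 genes, the roles and the other lists were chosen with earlier results of these data known. Values in every library are given for up to 4 called genes of each role with the largest change, plus any whose call went against its role's majority, and for further genes chosen after their values were seen.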

Additional observations from a re-analysis of the deposited data

How the results depend on the processing

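None of the 36 called genes was called in the other direction under any of the 12 alternatives, and DNMT1, not called in the fit reported, was called higher or lower in 3 of them. With 2 libraries a group, 1 library can decide a call. Leaving out any 1 library also lowered the share of all genes called, higher and lower alike, and most so without an untreated library. Library totals gave 7 of the 55 genes higher, 7 at least 2-fold lower and a median of -0.23, with licensing 4 higher, helicase 0 higher, polymerases 0 higher, single-strand binding 2 lower, other replication factors 7 higher, nucleotide supply 1 higher and G2 and mitosis 4 higher. Length and GC offset gave a median of -0.085, polymerases 0 higher, single-strand binding 3 lower, chromatin 1 higher, E2F and DTL 1 higher, other replication factors 10 lower, nucleotide supply 1 higher and G2 and mitosis 4 higher. Without a filter, helicase had 0 higher, nucleotide supply 1 higher and quiescence 0 lower, and the DESeq2 Wald test gave helicase 0 higher and quiescence 1 lower. The cause was not tested. The labels do not say whether libraries with the same replicate number belong together. The replicate differences of the 2 groups had a correlation of -0.039, which does not settle this. The fit with a replicate block gave 22 lower and 13 higher of the 55 genes and helicase 0 higher.

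Leaving out each library in turn gave 7 to 16 of the 55 genes higher, 3 to 7 at least 2-fold lower, medians of -0.11 to 0.0087, licensing 4 to 8 higher, helicase 0 to 1 higher, polymerases 0 to 2 higher, clamp 1 to 4 higher, single-strand binding 1 to 2 lower, E2F and DTL 0 to 1 higher, other replication factors 6 to 14 higher, nucleotide supply 1 to 2 higher, other E2F and pocket genes 1 to 4 higher, G2 and mitosis 1 to 7 higher and quiescence 0 to 2 lower. Over all annotated exons the untreated ratio of highest to lowest subunit was 3.55 for MCM2-7, 9.69 for ORC, 4.14 for GINS, 1.91 for RFC, 4.43 for RPA, 8.49 for polymerase alpha-primase, 3.97 for delta, 6.08 for epsilon and 6.85 for TIMELESS and TIPIN, an alternative chosen after seeing the data.

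Signs of the log2 fold change turned in 33 cases, of which those of ORC3, ORC5, PRIM2 and POLE2 with the length and GC offset had been called. With library totals the turned values were -0.11 for ORC1, -0.067 for MCM5, -0.042 for MCM10, -0.14 for GINS2, -0.11 for POLD2, -0.083 for POLE3, -0.071 for RFC1 and -0.090 for WDHD1. With the length and GC offset they were -0.0061 for ORC3, -0.034 for ORC5, 0.13 for MCM4, 0.17 for POLA2, -0.085 for PRIM2, 0.024 for POLD3, -0.15 for POLE2, -0.074 for POLE3, -0.11 for RFC4, -0.026 for WDHD1, 0.28 for DNMT1 and 0.049 for E2F1. POLD3 was at 0.012 with DESeq2 size factors and with the DESeq2 Wald test. Leaving out 1 library at a time, the values that crossed 0 ranged over -0.013 to 0.098 for ORC1, -0.028 to 0.10 for GINS2, -0.12 to 0.030 for POLA2, -0.060 to 0.017 for POLD3, -0.038 to 0.23 for POLE3, -0.28 to 0.054 for RPA2, -0.030 to 0.18 for WDHD1 and -0.29 to 0.00033 for DNMT1.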
